A study of Mus musculus with 6 samples.

Results

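The receptor for thymic stromal lymphopoietin (TSLP) and its nearest signalling partners were followed in the infarcted mouse heart, as 10 genes out of the 54532 listed. They were picked by gene symbol alone and comprised the ligands *Tslp* and *Il7*, the receptor chains *Crlf2*, *Il7r* and *Il2rg*, the kinases *Jak1* and *Jak2*, the transcription factors *Stat5a* and *Stat5b*, and the feedback inhibitor *Cish*. Bulk RNA sequencing had been carried out on heart tissue of 3 mice labelled WT and 3 mice labelled KO, with 1 library per mouse. All 6 mice were labelled C57BL/6 and had undergone ligation of the left anterior descending coronary artery, and tissue was taken on day 7 after myocardial infarction (MI). Per the study the tissue was infarcted and peri-infarct myocardium, the ligation was permanent, and the KO mice were TSLPR knockouts (*Crlf2-/-*). Its methods list purchased young adult C57BL/6J males, and knockouts made on the same background by another company. Whether the sequenced WT mice were the purchased ones or littermates of the knockouts is not stated. If they were purchased, supplier and genotype follow the same groups and cannot be told apart.

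TSLP is a cytokine released by epithelial and stromal cells, and it signals through a pair of chains. *Crlf2* encodes TSLPR, which binds the cytokine, and *Il7r* encodes the IL-7 receptor alpha chain, which completes the TSLP receptor and also serves IL-7 together with the common gamma chain encoded by *Il2rg*. The TSLP receptor engages JAK1 and JAK2, which phosphorylate STAT5A and STAT5B; these enter the nucleus and switch on genes such as *Cish*, whose product then dampens cytokine receptor signalling. Dendritic cells are a known responder, in which TSLP raises the chemokines encoded by *Ccl17* and *Ccl22*.

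STAT5 dimers favour the palindrome TTCNNNGAA, which reads the same on both strands. It was looked for in RefSeq windows (GRCm38.p6) running from 250 bases before to 50 bases after each RefSeq start site. Such windows were given for 8 of the 10 genes, all but *Tslp* and *Il7*, and 2 of these genes held the letters. Over all genes 8.3% of 32851 windows held at least 1 match, and 0.457% held at least 2. The stretches below are shown because *Cish* is the STAT5-induced gene of the group and the only member with 2 matches, *Il7r* is the other member with a match, and *Ccl17* is a chemokine known to follow TSLP. Capitals mark the matches.
*Cish*, chr9:107296654-107296683, plus strand: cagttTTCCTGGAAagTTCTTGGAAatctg
*Il7r*, chr15:9530000-9530028, minus strand: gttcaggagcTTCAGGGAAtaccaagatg
*Ccl17*, chr8:94810344-94810372, plus strand: ttatctcaaaTTCTTTGAAtttctctagt
The first *Cish* match begins at the RefSeq start site itself, whereas the matches of *Il7r* and *Ccl17* begin 142 and 99 bases before theirs. The gene bounds deposited by the authors reach further upstream for *Cish* (chr9:107296026) and *Il7r* (chr15:9530176). The printed stretches of these genes therefore lie inside the deposited bounds. The window of *Ccl22*, the other chemokine named above, held no match. A match is a description of the letters, and binding was not measured.

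The authors deposited FPKM, that is, fragments scaled by gene length and by library size. Levels of different genes could thus be set side by side, with the limit that they depend on the length used. For the members other than *Tslp* that length was the union of all annotated exons in GENCODE M21. For *Cish* it was 6419 bases, nearly all of the gene's span, a long divisor that lowers its FPKM. Depth was 18508646 to 19682428 fragments assigned to genes in each library. Every nonzero FPKM multiplied by gene length came out as a whole number of fragments, within 0.05. All 10 members passed the filter on low genes, which left 15520 genes for testing. Markers of heart muscle were abundant, with the summed FPKM of 8 cardiomyocyte genes at 1211 to 2261 in WT libraries and 858 to 1587 in KO libraries. The labels' extraction text mentions the retina instead, and 8 retina genes together reached at most 0.195 FPKM, with *Rcvrn*, *Rpe65* and *Crx* at 0 in all libraries. In bulk tissue, fewer cells of a type and less RNA per cell cannot be told apart.

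Averaged over the 6 libraries, the levels spanned from *Jak1* at 31.8 FPKM down to *Il7* at 0.206 FPKM. *Jak1* was followed by *Crlf2* (20.8 FPKM), *Jak2* (14.7), *Il2rg* (11.4), *Stat5b* (8.06), *Il7r* (6.19), *Stat5a* (1.99), *Cish* (0.967) and *Tslp* (0.815). The receptor-specific chain thus stood above the shared chains *Il2rg* and *Il7r* in mean FPKM, and both ligands stood at the bottom of the order. Neighbours whose ranges overlapped were *Crlf2* and *Jak2*, *Stat5b* and *Il7r*, and *Cish* and *Tslp*. Within a library *Crlf2* exceeded *Jak2* in 5 of 6, *Stat5b* exceeded *Il7r* in 4 of 6, and *Cish* exceeded *Tslp* in 4 of 6. By fragments *Cish* had 79 to 199 per library and *Tslp* 16 to 26, so their nearness in FPKM depends on the gene lengths used.

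**Figure D1:**
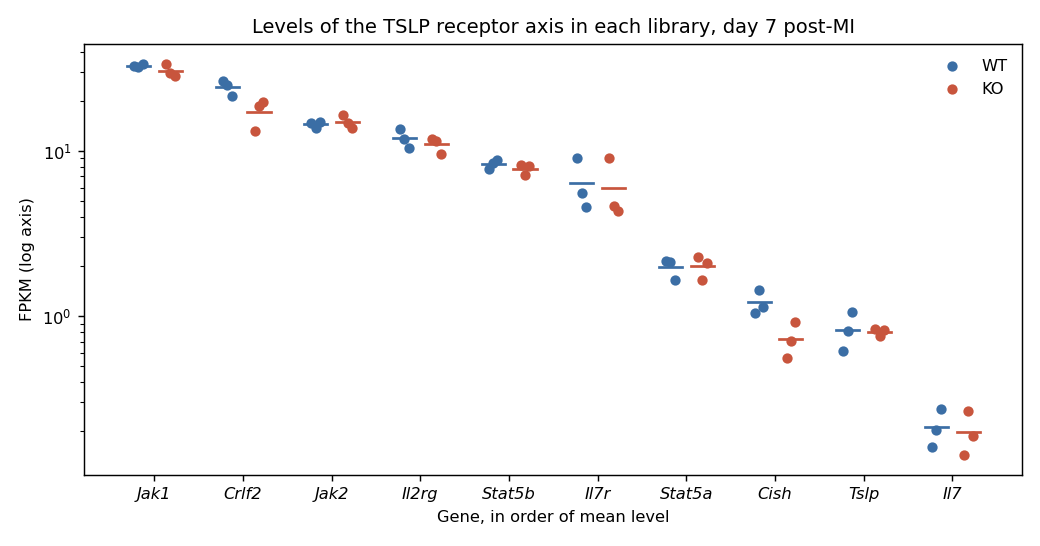
FPKM on a log axis for each of the 10 genes, in order of mean level, with a point for each mouse (blue, WT; red, KO) and a line at the group mean of 3 mice. The levels span from 31.8 FPKM for Jak1 to 0.206 FPKM for Il7, and the WT and KO points separate for Crlf2 and Cish.

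*Crlf2* and *Cish*, the receptor chain and the STAT5-induced inhibitor, were the members for which every KO library lay below every WT library, and neither difference passed the threshold across all genes. Of the 10 members, 0 were called different, which required a limma p of 0.05 or less after Benjamini-Hochberg adjustment over all genes tested and a log2 fold change of 0.5 or more in size, where 0.0129% of all genes were. The study's DESeq2 test of counts called far more genes at the same thresholds, so 0 called here does not show that no member differs. At an unadjusted p under 0.05, 2 of the 10 were lower in KO hearts and 0 were higher, beside 3.36% and 3.22% of all genes, and voom on the fragments gave the same counts. WT and KO libraries were fully apart for 2 of the 10, both with KO lower, beside 6.37% of all genes with KO lower and 5.37% with KO higher. The median log2 fold change was -0.09 over the 10 members and -0.0042 over all genes tested.

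**Figure D2:**
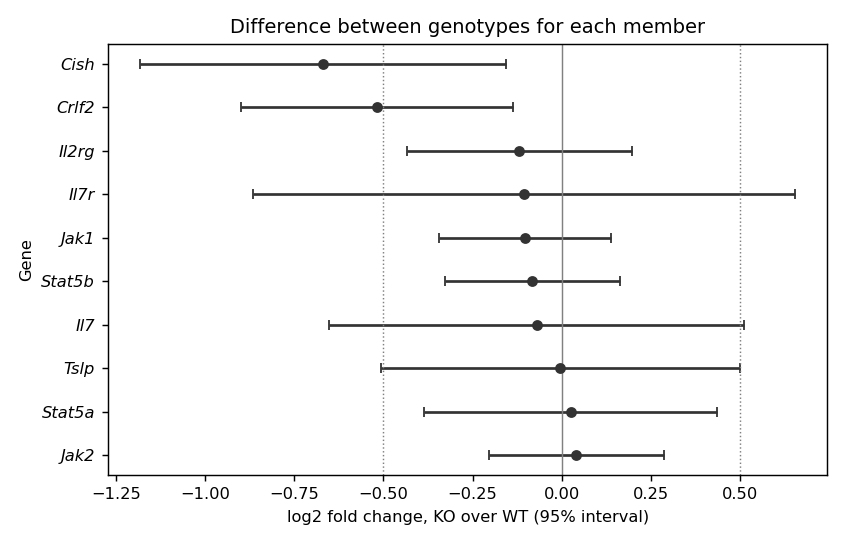
Log2 fold change of KO over WT for each member (point) with its 95% interval from limma (bar), where dotted lines mark 0.5 in either direction. The intervals of Cish and Crlf2 lie below 0 and those of the other 8 genes include 0.

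*Crlf2* (ENSMUSG00000033467, chr5:109554709-109558993, minus strand) is the gene targeted in the KO mice, so its values also bear on the labels. It stood at 26.6, 25.1 and 21.6 FPKM in WT replicates 1, 2 and 3, and at 13.2, 18.7 and 19.8 FPKM in KO replicates 1, 2 and 3. All KO libraries were lower than all WT libraries, KO replicate 1 lowest of all, yet none was near 0. The KO libraries held between 53.9% and 80.9% of the WT mean, from 437 to 667 fragments against 707 to 917. On the log2(FPKM + 0.1) scale KO minus WT was -0.52 (standard error 0.17; limma, adjusted p = 0.521), a fold of 0.699 with a 95% interval from 0.536 to 0.911. It was -0.34 without KO replicate 1. The annotated *Crlf2* gene has 8 exons in GENCODE M21 and overlaps no other gene there, and a value per gene does not show which exons the fragments came from. The 3 libraries are therefore named by their label, KO. Positions here and below are those of the deposited table (mm10).

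*Cish* (ENSMUSG00000032578, chr9:107296026-107302784, plus strand), which carries the pair of TTCNNNGAA matches printed above, encodes a member of the SOCS family that binds activated cytokine receptors. Its level was 1.05, 1.43 and 1.14 FPKM in the WT libraries and 0.555, 0.708 and 0.919 FPKM in the KO libraries. Again the groups did not overlap and KO replicate 1 was the lowest library. The KO mean was 60.3% of the WT mean, with a log2 fold change of -0.67 (standard error 0.22, unadjusted p = 0.0168, adjusted p = 0.551, limma). With a pseudocount of 1 in place of 0.1 the log2 fold change was -0.35, and its unadjusted limma p was 0.0145. Leaving out WT replicate 2 gave an unadjusted limma p of 0.0683 and leaving out KO replicate 1 gave 0.0548. *Cish* rests on 79 to 199 fragments per library, and the annotation places *Gm17040* and *Gm17041* over the same stretch, so fragments could have been split between them.

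The ligands were scarce. *Tslp* (ENSMUSG00000024379, chr18:32815383-32819799, plus strand) stood at 0.613, 0.815 and 1.05 FPKM in WT libraries and at 0.836, 0.757 and 0.822 FPKM in KO libraries. The KO values fell within the WT range. The log2 fold change was -0.0036 with a 95% interval from -0.51 to 0.50, and it rests on 16 to 26 fragments per library.

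*Il7* (ENSMUSG00000040329, chr3:7569994-7613760, minus strand), the cytokine that shares *Il7r* with TSLP, was lower still, at 0.161, 0.204 and 0.275 FPKM in WT and 0.143, 0.265 and 0.188 FPKM in KO libraries. The groups overlapped, with a log2 fold change of -0.07 (95% interval -0.65 to 0.51) from 18 to 35 fragments per library. The annotation places *Gm16685* over *Il7* and *4930455D15Rik* over *Tslp*, whose position there differs from the deposited one. The sign of the *Il7* difference turned without WT replicate 3 (0.07), and that of *Tslp* turned without the same library (0.17).

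*Il7r* (ENSMUSG00000003882, chr15:9505788-9530176, minus strand) varied more within each group than between the groups. It measured 9.04, 5.56 and 4.54 FPKM in WT libraries and 9.001, 4.63 and 4.35 FPKM in KO libraries. Replicate 1 of each genotype was the high library, and the remaining 4 lay between 4.35 and 5.56 FPKM. The coefficient of variation was 37% in WT and 43.5% in KO libraries, against 3.93% from counting error alone, which was the widest gap of the 10 genes. The log2 fold change was -0.11 (95% interval -0.86 to 0.65, adjusted p = 0.996, limma), and it became 0.18 without WT replicate 1 and -0.44 without KO replicate 1.

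Markers of immune cells that can carry *Il7r* were set beside it. The summed FPKM of 8 monocyte and macrophage markers was 1683 to 3079 in WT libraries and 1793 to 2607 in KO libraries, most of it *Lyz2*. *Lyz2* and *Cd68* were highest in replicate 1 of either group, as *Il7r* was, while *Ly6c2* was lowest there. *Adgre1*, *Csf1r*, *Cd14* and *Mrc1* were highest in replicate 1 among WT libraries, as *Il7r* was, but in replicate 2 among KO libraries. *Ccr2* was highest in WT replicate 3 and KO replicate 2 of their groups. The summed FPKM of 10 T cell markers ran from 7.22 to 10.7 in WT and from 4.05 to 6.04 in KO libraries, with 7 of the 10 not overlapping and KO lower (6.37% over all genes), and none was at 0. The part of either in the *Il7r* values was not tested.

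*Il2rg* (ENSMUSG00000031304, chrX:101264378-101268255, minus strand), the common gamma chain shared by several interleukin receptors, measured 13.6, 11.8 and 10.4 FPKM in WT libraries and 11.9, 11.4 and 9.52 FPKM in KO libraries. The groups overlapped, and the log2 fold change was -0.12 (95% interval -0.43 to 0.20). Omitting any single library kept it below 0, between -0.21 and -0.02. *Gm20489* is annotated over the same stretch.

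Both kinases overlapped between the groups. *Jak1* (ENSMUSG00000028530, chr4:101152367-101265282, minus strand) measured 32.7, 32.4 and 33.5 FPKM in WT libraries and 33.8, 29.5 and 28.6 FPKM in KO libraries, a log2 fold change of -0.10 (95% interval -0.34 to 0.14). *Jak2* (ENSMUSG00000024789, chr19:29251828-29313080, plus strand), which pairs with JAK1 at the TSLP receptor, measured 14.8, 13.8 and 15.02 FPKM in WT libraries and 16.4, 14.8 and 13.7 FPKM in KO libraries, a log2 fold change of 0.04 (95% interval -0.20 to 0.29). KO replicate 1 was the highest of the 6 libraries for either gene. The sign of the *Jak2* difference turned without KO replicate 1 (-0.03).

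*Stat5b* (ENSMUSG00000020919, chr11:100780731-100850724, minus strand) and *Stat5a* (ENSMUSG00000004043, chr11:100859351-100885169, plus strand) are adjacent genes for closely related factors. *Stat5b* was the more abundant, at 7.73, 8.42 and 8.75 FPKM in WT libraries and 8.18, 7.15 and 8.11 FPKM in KO libraries. *Stat5a* measured 2.17, 2.12 and 1.65 FPKM in WT libraries and 2.28, 1.65 and 2.10 FPKM in KO libraries. The WT and KO values of each gene overlapped, with log2 fold changes of -0.08 (95% interval -0.33 to 0.16) for *Stat5b* and 0.03 (95% interval -0.39 to 0.44) for *Stat5a*. The sign for *Stat5a* turned without WT replicate 3 (-0.09). Of all 100-base windows of their annotated transcripts, 265 were identical between the genes, 3.44% of those of *Stat5a* and 4.79% of those of *Stat5b*, so a small share of fragments could not be assigned to either with certainty. *Stat5a* also overlaps *Stat3* in the annotation. No such window was shared by *Jak1* and *Jak2* or by *Crlf2* and *Il2rg*.

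Ratios of member levels within a library do not depend on scaling between libraries. The ratio of *Jak2* to *Jak1* was 0.452, 0.425 and 0.448 in WT libraries and 0.486, 0.5002 and 0.479 in KO libraries. All KO ratios lay above all WT ratios, with means of 0.442 ± 0.0145 (SD, n = 3) and 0.488 ± 0.0109 (SD, n = 3) and a log2 difference of 0.14, which stayed between 0.12 and 0.16 with any single library omitted. An exact two-sided permutation test gave p = 0.1, the smallest that 3 mice against 3 allow, and 0.4 after Benjamini-Hochberg adjustment over the 4 ratios computed. *Jak1* overlaps the annotated genes *Raver2*, *Gm24468* and *Gm12785*, so its fragments may be less certain than those of *Jak2*.

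The ratio of *Il7r* to *Crlf2*, the chains of the TSLP receptor, was 0.34, 0.222 and 0.21 in WT libraries and 0.683, 0.248 and 0.22 in KO libraries. Only KO replicate 1, high in *Il7r* and low in *Crlf2*, stood apart, and the groups overlapped (exact permutation test, two-sided, p = 0.6, adjusted 0.933). Without that library the log2 difference turned from 0.41 to -0.10. The ratios of *Il2rg* to *Il7r* (1.32 to 2.47) and of *Stat5a* to *Stat5b* (0.188 to 0.28) overlapped as well (exact permutation tests, p = 1.0 and 0.7).

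**Figure D3:**
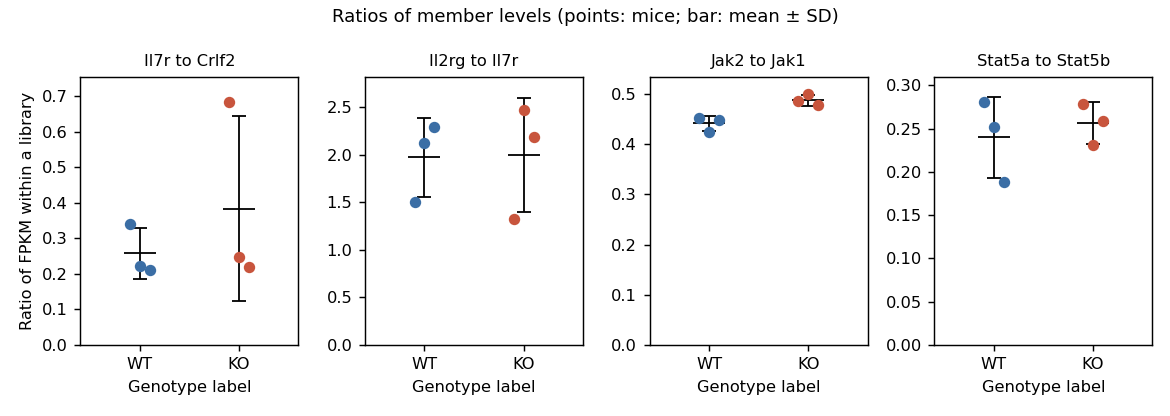
Ratios of FPKM within each library for the 4 pairs of members, with points for mice, a bar for the mean and whiskers for the SD of 3 mice, on axes from 0. The KO ratios of Jak2 to Jak1, 0.479 to 0.5002, lie above the WT ratios, 0.425 to 0.452.

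The profile of *Crlf2* over the 6 libraries was set beside that of every other tested gene, by the mean absolute difference between the deviations of their log2(scaled FPKM + 0.1) from their own means. The smallest differences among 15519 genes belonged to *Tcf21* (0.0591), *Tsc22d3* (0.0596), *Cbx2* (0.064), *2310010J17Rik* (0.0643) and *Tinagl1* (0.0666). *Tcf21* encodes a transcription factor of cardiac fibroblasts, *Tsc22d3* a glucocorticoid-induced leucine zipper protein and *Cbx2* a Polycomb subunit. *Tcf21* measured 28.2, 27.8 and 24.4 FPKM in WT libraries and 15.5, 20.3 and 24.2 FPKM in KO libraries, and its lower KO values follow from its choice as a gene like *Crlf2*. Of the other 5 fibroblast markers examined, *Col1a1* was fully higher in KO libraries, beside 5.37% of all genes, and 4 overlapped. With *Tcf21* their summed FPKM was 4889 to 5901 in WT and 5868 to 5986 in KO libraries. The part of fibroblast number in the *Crlf2* values was not tested.

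Among the members, *Cish* was nearest to *Crlf2* in this measure, at rank 299 of 15519 with a difference of 0.161. *Stat5b* and *Jak1* followed at ranks 2980 and 3091, *Il2rg* at 5082, *Jak2* at 7453, *Il7* at 7992, *Stat5a* at 8291 and *Tslp* at 10008. *Il7r*, the partner chain, was farthest, at rank 13949 with a difference of 0.483. These ranks describe 6 libraries of which 3 carry the KO label, so the genotype difference enters each of them.

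The nearest 3 tested genes on each side of *Crlf2* on chromosome 5 were examined, though none lay close to it. On the lower-coordinate side *Idua*, *Slc26a1* and *Fgfrl1*, 847.8 to 879.1 kb away, had log2 fold changes of -0.02, 0.22 and 0.16. On the other side *5430403G16Rik*, *4930522L14Rik* and *Gm8508*, 115.6 to 198.5 kb away, had 0.05, -0.43 and -0.58. None of these had an unadjusted limma p under 0.05, the smallest being 0.0872 for *4930522L14Rik*, which is 177 kb away. *Gm8508* rests on 9 to 27 fragments per library, and it became -1.07 (unadjusted p = 0.000714, adjusted p = 0.153, limma) without KO replicate 1 and -0.28 without KO replicate 2. *4930522L14Rik* became -0.64 (unadjusted p = 0.0144, adjusted p = 0.889, limma) without WT replicate 2.

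Other genes of the pathway were taken from lists of cytokines, receptors, kinases, inhibitors and target genes. By limma, 0 genes of the 7 lists passed both thresholds, and voom called 0 as well. Among the cytokines that use the common gamma chain, *Il15*, which sustains NK and memory T cells, was the most abundant, at 4.02 to 4.55 FPKM in WT and 3.83 to 4.10 FPKM in KO libraries. *Il9* and *Il21* were listed at 0 in all libraries and *Il2* in 5 of 6. Among receptor chains that pair with *Il2rg*, *Il4ra* led with 22.1 to 24.7 FPKM in WT and 21.7 to 27.9 FPKM in KO libraries, and 0 of the 5 tested were below an unadjusted p of 0.05. Among other receptors that use JAK2 and STAT5, *Csf2ra*, the GM-CSF receptor alpha chain, led with 22.8 to 31.1 FPKM in WT and 28.7 to 29.99 FPKM in KO libraries, and again 0 of 8 were below 0.05. Over all genes 3.36% were lower and 3.22% higher in KO at that unadjusted p. The median log2 fold changes of these lists were -0.09, 0.08 and 0.05, of which the second turned to -0.0064 without WT replicate 1 and the third to -0.014 without WT replicate 3.

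Among 6 other JAKs and STATs, 2 genes were fully apart between the groups, 1 higher and 1 lower in KO, beside 5.37% and 6.37% of all genes. *Stat2*, a factor of type I interferon signalling, was 8.83, 7.41 and 10.53 FPKM in WT libraries and 12.2, 16.4 and 15.9 FPKM in KO libraries. Every KO library lay above every WT library, with a log2 fold change of 0.73 (unadjusted p = 0.00198, adjusted p = 0.254, limma).

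*Stat4*, a factor of IL-12 signalling in T and NK cells, went the other way, with 0.796, 0.691 and 0.579 FPKM in WT and 0.466, 0.266 and 0.367 FPKM in KO libraries. Its groups did not overlap, and its log2 fold change was -0.77 (unadjusted p = 0.0125, adjusted p = 0.514, limma), or -0.31 with a pseudocount of 1. The T cell marker sums given above were lower in KO libraries too, and their part in *Stat4* was not tested. *Stat6*, the most abundant of the list, had a log2 fold change of -0.03. In all, 1 of the 6 genes was higher and 1 was lower at an unadjusted p under 0.05, beside 3.22% and 3.36% of all genes. The median was 0.02 and turned to -0.02 without WT replicate 3.

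Of the 16 inhibitors of JAK-STAT signalling besides *Cish*, 0 had an unadjusted p under 0.05, beside 3.36% of all genes lower and 3.22% higher. *Ptpn6*, the phosphatase SHP-1, was the most abundant at 24.2 to 30.6 FPKM over the 6 libraries (log2 fold change 0.09). *Socs2*, another STAT5-induced member of the SOCS family, measured 6.65, 6.63 and 7.18 FPKM in WT libraries and 5.30, 5.95 and 6.71 FPKM in KO libraries, a log2 fold change of -0.19 with overlapping groups. *Socs3*, induced mainly through STAT3, went the other way, at 12.7, 11.2 and 10.7 FPKM in WT libraries and 12.4, 15.2 and 13.6 FPKM in KO libraries (log2 fold change 0.25, unadjusted p = 0.0613, adjusted p = 0.798, limma). *Sh2b3*, which encodes the adaptor LNK, was the 1 gene of the 16 whose groups did not overlap, with KO higher (0.17), beside 5.37% of all genes. *Socs2*, *Socs3* and *Sh2b3* were chosen after their values were seen.

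Of 15 tested genes listed as STAT5 targets besides *Cish*, *Bcl6* among them, 0 had an unadjusted p under 0.05, beside 3.36% of all genes lower and 3.22% higher. Their log2 fold changes ran from -0.19 to 0.28 with a median of 0.03, which turned to -0.036 without KO replicate 3. *Mcl1*, an antiapoptotic factor, was the most abundant, at 102 to 120 FPKM in WT and 112 to 118 FPKM in KO libraries. The groups did not overlap for *Pim1* and *Igf1*, with KO higher (0.21 and 0.23), and for *Bcl2l1*, with KO lower (-0.17), beside 5.37% and 6.37% of all genes, 3 genes named after their values were seen.

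**Figure D4:**
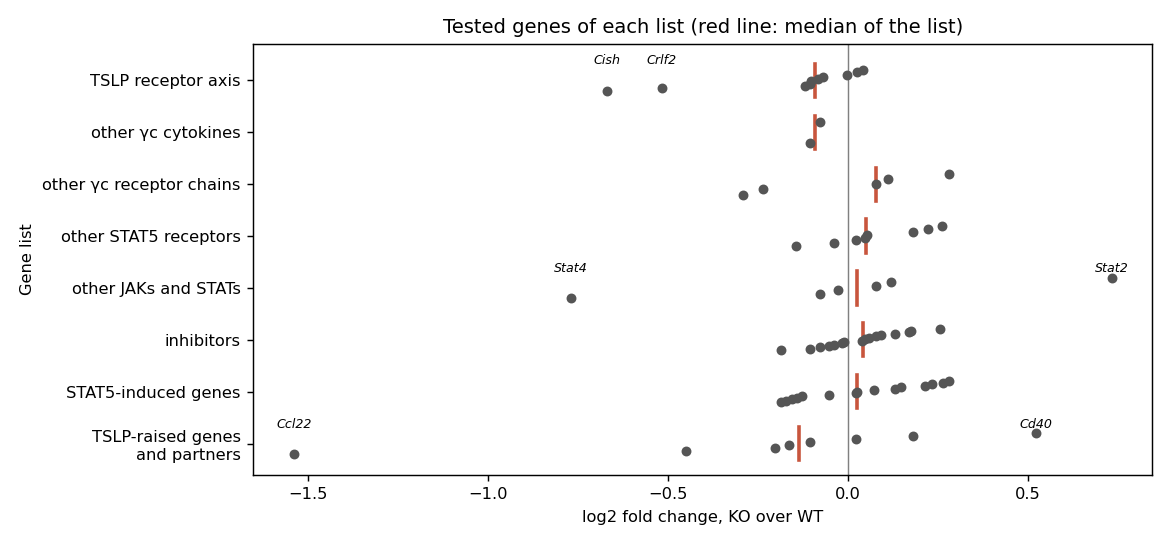
Log2 fold change of KO over WT for each tested gene of the TSLP receptor axis and of 7 pathway lists (points), with a red line at the median of each list and names beside genes past 0.5 in either direction. Cish and Crlf2 lie at -0.67 and -0.52, Stat2 at 0.73 and Ccl22 at -1.54.

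The genes that TSLP is known to raise in dendritic cells, with their partners, held the widest log2 fold change of the 7 lists. *Ccl22*, a chemokine for CCR4-bearing T cells, was 1.23, 0.695 and 1.00 FPKM in WT libraries and 0.213, 0.203 and 0.401 FPKM in KO libraries. The groups did not overlap, and the log2 fold change was -1.54 (unadjusted p = 0.000735, adjusted p = 0.181, limma), or -0.63 with a pseudocount of 1. It rests on 35 to 66 fragments in WT and 11 to 21 in KO libraries.

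*Ccl17*, the other CCR4 ligand, whose matched stretch is printed above, was 3.46, 3.05 and 3.56 FPKM in WT libraries and 2.11, 3.25 and 2.07 FPKM in KO libraries. KO replicate 2 lay within the WT range, and the log2 fold change was -0.45 (unadjusted p = 0.0421, adjusted p = 0.73, limma). *Cd40*, a costimulatory receptor, was higher in every KO library, at 2.14, 2.02 and 2.15 FPKM in WT and 3.47, 2.73 and 3.01 FPKM in KO (log2 fold change 0.52, unadjusted p = 0.00494, adjusted p = 0.355, limma). *Cd86*, the most abundant of the list, gave -0.16 with overlapping groups. *Cd80*, which shares its receptors with CD86 and was named after its values were seen, was 3.76, 4.13 and 4.11 FPKM in WT and 4.92, 4.21 and 4.48 FPKM in KO libraries, fully higher in KO (log2 fold change 0.18, unadjusted p = 0.151, adjusted p = 0.9001, limma). In all, 2 of the 8 tested genes were lower and 1 was higher at an unadjusted p under 0.05, beside 3.36% and 3.22% of all genes. With voom on fragments 1 was lower and 1 was higher, and *Ccl17* had an unadjusted p of 0.17. With single libraries left out, the unadjusted limma p of *Ccl17* ranged from 0.0029 to 0.139. The list median was -0.14, and it turned to 0.0071 without KO replicate 1.

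Some dendritic cell markers were lower in KO libraries too. The summed FPKM of 8 dendritic cell markers was 16.0 to 21.4 in WT and 10.8 to 16.6 in KO libraries, and the groups did not overlap for *Zbtb46*, *Cd209a* and *Ccr7*, all with KO lower (3 of 8, beside 6.37% of all genes). *Itgax*, the CD11c gene, averaged 6.95 FPKM in WT and 6.12 FPKM in KO libraries with overlapping groups, and no marker of the list was at 0. Their part in the chemokine, *Crlf2* and *Cish* values was not tested.

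**Figure D5:**
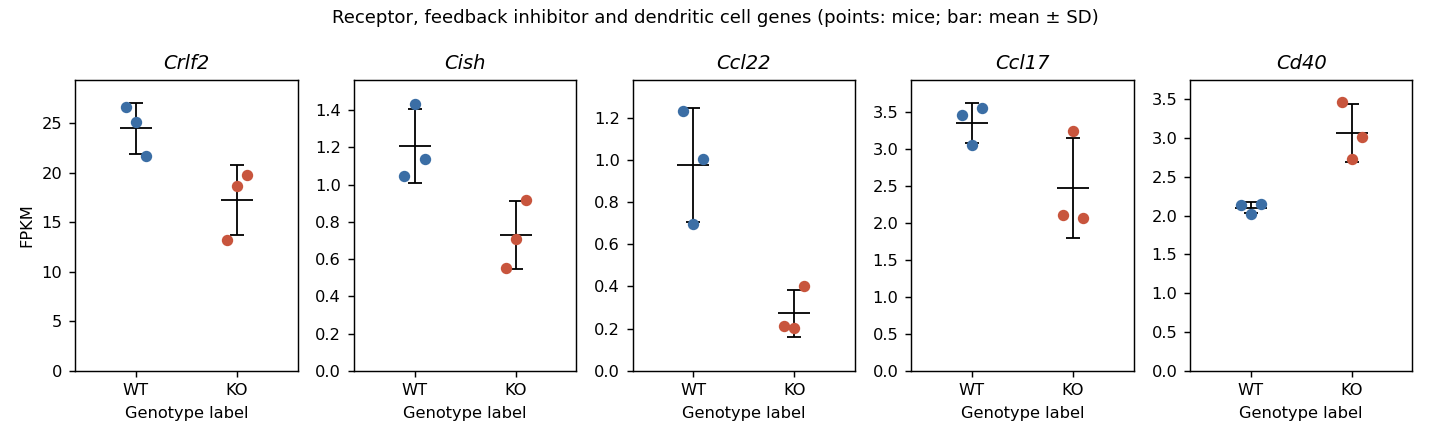
FPKM of Crlf2, Cish, Ccl22, Ccl17 and Cd40 in each mouse (points), with the mean and SD of 3 mice per group, on axes from 0. The KO libraries lie below WT for Crlf2, Cish and Ccl22, overlap WT for Ccl17 and lie above WT for Cd40.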

How the data were processed

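The authors trimmed reads with fastp, aligned them with HISAT2 (version 2.0.5 in the submitters' processing notes, which name mm10 beside a human build), counted fragments with featureCounts and deposited FPKM with a gene length. Strandedness is not given in the sources used here, so overlapping genes are uncertain. Fragments were FPKM times length, divided by the value of 1 fragment in each library. The table held 0 columns of other samples. limma 3.58.1 in R 4.3.3 was fitted to log2(scaled FPKM + 0.1), using robust eBayes with a trend and trimmed-mean-of-M-values scaling, for genes reaching 10 fragments in 3 or more libraries and 15 overall. This scale understates changes of low genes. Intervals are 95% intervals from that fit. The limma p-values set each difference against the spread between 3 mice per group, moderated by the spread of other genes. Fits were tested on simulated data.

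Members and lists were chosen with earlier results of these data known. Named were all members, in each list the most abundant gene and up to 4 genes at an unadjusted p under 0.05, the 5 genes most like *Crlf2*, and 3 tested genes on each side of it. 1 gene of a list is withheld for evaluation and is not reported here. Alternatives were pseudocounts of 1 and 0.01, no filter, 10 fragments in every library, no scaling, median-of-ratios scaling, the replicate number as a block, voom, and leaving out each library. Gene models were read from GENCODE M21, where 53499 of 54532 genes had the same position. Among the members only *Tslp* differed, with 1331 bases of exons there against a deposited length of 1133. Other steps used matplotlib 3.10.9, pandas 2.3.3, scipy 1.17.1 and numpy 2.4.6 in Python 3.11.15.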

Additional observations from a re-analysis of the deposited data

How the results depend on the processing

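Of 554 comparisons of a value with an alternative, 504 held, 26 moved and 24 reversed. To hold, a ratio kept its sign, and a fold change kept its sign and its call by both thresholds together, whatever its size. *Crlf2* at -0.34 without KO replicate 1 and *Cish* at -0.35 with a pseudocount of 1 held in this sense, though both crossed 0.5. A count held if it stayed within 1.5 times, and a list median if it moved by less than 1 SD between replicates. No member, and no gene of the 7 pathway lists, passed both thresholds under any alternative. Over all genes 2 were called (1 higher, 1 lower). There were 6 (2 higher, 4 lower) with no filter, 1 (0 lower) with 10 fragments in every library, and 2 lower with voom on fragments. Leaving out each library gave 1 to 14 in total, 1 to 5 higher and 0 to 10 lower, with 14 without KO replicate 1, 8 without WT replicate 3, and 1 without WT replicate 1, WT replicate 2 or KO replicate 3. The cause was not tested. In those fits *Crlf2* ranged from -0.63 to -0.34 and *Cish* from -0.83 to -0.51 (log2 fold changes). Over all alternatives their adjusted limma p-values ranged from 0.455 to 1 and from 0.423 to 1.

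With voom on fragments the sign for *Tslp* turned, at 0.000862. Signs also turned with libraries left out, where log2 fold changes ranged from -0.17 to 0.17 for *Tslp*, from -0.44 to 0.18 for *Il7r*, from -0.22 to 0.067 for *Il7*, from -0.031 to 0.10 for *Jak2*, from -0.094 to 0.16 for *Stat5a*, from -0.0011 to 0.18 for *Il4ra*, from -0.077 to 0.014 for *Stat6*, from -0.087 to 0.022 for *Idua*, from -0.0028 to 0.56 for *Slc26a1* and from -0.13 to 0.17 for *5430403G16Rik*. The log2 ratio ranged from -0.10 to 0.71 for *Il7r* to *Crlf2*, from -0.20 to 0.26 for *Il2rg* to *Il7r* and from -0.055 to 0.23 for *Stat5a* to *Stat5b*. With libraries left out, 5 of 7 list medians reached both signs. They ranged from -0.0064 to 0.15 for the common gamma chain receptors and from -0.014 to 0.18 for the STAT5 receptors. The range was from -0.019 to 0.048 for the JAKs and STATs, from -0.036 to 0.12 for the STAT5 targets and from -0.22 to 0.0071 for the TSLP-raised genes.

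Deviations of same-numbered libraries correlated across genes at -0.016, 0.115 and 0.12, so the replicate numbers were treated as names and not as a pairing, and not every library correlated best with its own number. With the replicate block 4 genes were called (3 lower), and the log2 fold changes stayed at -0.52 for *Crlf2* and -0.67 for *Cish*. Depth limits the values of *Tslp* and *Il7*.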

Other observations

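Some markers of other cell types known to answer TSLP were sparse. *Icos* encodes a costimulatory receptor of T cells and type 2 innate lymphoid cells. It was 0.684, 0.659 and 0.347 FPKM in WT libraries and 0.250, 0.125 and 0.168 FPKM in KO libraries, with no overlap. The log2 fold change was -1.22 (unadjusted p = 0.00338, adjusted p = 0.315, limma). The study listed *Icos* among the genes lower in its knockouts, from DESeq2 on counts. Of the 4 tested markers of type 2 innate lymphoid cells, only 1, *Icos*, did not overlap, beside 6.37% of all genes with KO lower. *Rora*, the most abundant of them, ran from 2.23 to 4.17 FPKM in WT and 2.73 to 3.81 FPKM in KO libraries (log2 fold change 0.20). *Il17rb* and *Areg* had at most 7 and 3 fragments in any library. *Il1rl1*, the IL-33 receptor chain, and *Gata3* were at most 0.422 and 0.207 FPKM in any library, with groups that overlapped. Mast cell markers went different ways. *Mcpt4* had 10 to 15 fragments in WT and 3 to 7 in KO libraries, *Tpsb2* had 4 to 8 in WT and 4 to 26 in KO libraries, *Cpa3* had 25 in each WT library and 3 to 36 in KO libraries, and *Kit* had 523 to 781 in WT and 457 to 683 in KO libraries. *Krt5*, a marker of the keratinocytes that release TSLP in skin, was at 0 in all libraries. *Krt14*, from the same list, ran from 0.244 to 1.03 FPKM, *Krt8* from 0.488 to 3.75 FPKM and *Krt18* from 1.73 to 8.03 FPKM. *Epcam* and *Cdh1* were detected in every library as well. These genes were chosen after their values were seen.

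Red blood cell markers were lower in KO libraries for 5 of 5 genes without overlap, beside 6.37% of all genes, with a summed FPKM of 226 to 370 in WT and 84.9 to 162 in KO libraries.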
